A study of Taeniopygia guttata with 23 samples.

Results

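In the auditory forebrain of male zebra finches (Taeniopygia guttata), 3068 autosomal regions carried H3K9me3 in every library from day 67 after hatching and had no H3K9me3 island in the library from day 32. They were chosen on these measured values. The enriched intervals (islands) of the 5 H3K9me3 libraries were merged where they overlapped or touched. Merged regions under 20 kb outside the Z chromosome were then kept if they had an island in 4 of 4 day 67 libraries and none in the day 32 library. The 3068 members are 8.62% of the 35580 such autosomal regions, and the merging gave 39912 regions in all. Which libraries called a region is therefore the rule itself, and H3K9me3 values at the members are given as a description, with no test between the ages. A region without an island has an unknown read count, not a count of 0, so "without P32 H3K9me3" below means uncalled.

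Isolate males lived with 2 adult females from day 21 and were taken on day 67. Tutored males lived with 1 adult male and 1 adult female over the same time and were also taken on day 67, although the series' design text gives day 65. P32 males stayed in their home flight aviaries and were taken on day 32. The auditory forebrain is where songbirds process heard song, and juvenile males learn their song from an adult male. Chromatin immunoprecipitation and sequencing was done for H3K9me3, H3K27me3, H3K4me3 and RNA polymerase II (Pol II), with 2 Isolate, 2 Tutored and 1 P32 library of each, 20 in all. The sources used here do not say how many birds went into a library. The labelled tissue was not checked against marker genes and no gene is named, since the lists carry coordinates alone and no annotation of their genome build was used here. For the same reason no sequence is shown.

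H3K9me3 is a methyl mark on histone H3 that is bound by HP1 proteins and is typical of compact, transcriptionally silent heterochromatin. In vertebrates it covers repeats and transposable elements, and it also lies over some silent genes. In mammals, KRAB zinc finger proteins bring the methyltransferase SETDB1 to such elements through the cofactor KAP1. H3K27me3 is laid down by the Polycomb enzyme EZH2 and marks another kind of silent chromatin, H3K4me3 marks promoters that are active or poised, and Pol II transcribes genes. In most mammalian cell types studied, H3K9me3 and H3K27me3 tend to occupy different domains, although they overlap in some.

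The P32 H3K9me3 library stood apart from the 4 day 67 libraries. Among autosomal regions under 20 kb, each day 67 library alone called 1695 to 2691, whereas P32 alone called 8303. The 8303 regions called in P32 alone were short (median 2.0 kb), and 45.4% of them overlapped an H3K4me3 region, against 15.5% of all autosomal regions under 20 kb. The day 67 libraries had 19002 to 24470 islands, and P32 lay inside this range with 20287. Reads in islands numbered 1551076 to 2070288 at day 67 and 2133615 in P32, the most of the 5. With 1 P32 library, age, batch and library cannot be told apart in any result below, and the smallest p that an exact one-sided test of 4 libraries against 1 allows is 0.2.

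The members were mid-sized domains, longer than most H3K9me3 regions. Their lengths ran from 600 bp to 19.8 kb with a median of 5.6 kb, and the quartiles were 4.0 and 7.8 kb. The 4050 autosomal regions under 20 kb that were called in all 5 libraries, termed lasting regions here, had a median of 7.0 kb, and all autosomal regions under 20 kb had 2.8 kb. A merged region spans the islands of every library that called it. Regions called in more libraries therefore tend to be longer by construction, and the set of all holds many called in 1 library. Together the members covered 19.3 Mb. Of the 7118 regions called in all 4 day 67 libraries, 43.1% were members, and the rest were lasting regions.

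A member typically held about 70 H3K9me3 reads in every day 67 library. The median member had 70 reads in Isolate replicate 1, 70 in Isolate replicate 2, 69 in Tutored replicate 1 and 67 in Tutored replicate 2. Single members held 20 to 315 reads in Isolate replicate 1, 15 to 425 in Isolate replicate 2, 19 to 294 in Tutored replicate 1 and 14 to 436 in Tutored replicate 2. Per 1000000 reads in islands of a library (CPM), the median member stood at 44.2 and 37.4 in Isolate and 44.5 and 32.4 in Tutored. The median lasting region stood higher in the same libraries, at 57.5 and 61.5 CPM in Isolate and 58.0 and 59.9 CPM in Tutored. The gap was wider in replicate 2 than in replicate 1 of both groups. CPM is not scaled by length, and lasting regions were the longer set (median 7.0 kb against 5.6 kb).

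The islands of replicate 1 were broad and thinly filled and those of replicate 2 narrow and dense, in both groups alike. Islands covered 81.8% (Isolate) and 81.1% (Tutored) of the median member in replicate 1, and 52.6% and 48.5% in replicate 2. Read density inside the members' islands had a median of 16.9 (Isolate) and 16.7 (Tutored) reads per kb in replicate 1, and of 25.3 and 26.5 in replicate 2. In islands of lasting regions the medians were 18.75 (Isolate) and 18.6 (Tutored) in replicate 1, and 29.4 and 31.9 in replicate 2. For the replicate 2 libraries the authors' deposited table also gives a fold over input per island. By the authors' deposited table the members' islands had a median of 2.69-fold over input in Isolate and 2.76-fold in Tutored, and the islands of lasting regions had 2.87-fold and 3.05-fold. The members were thus slightly less enriched over input than lasting regions in both lists.

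Read densities in islands of like length are given side by side, without scaling between libraries. Members with a called length over 2 kb and up to 4 kb had median densities there of 17.5 (Isolate replicate 1), 24.7 (Isolate replicate 2), 17.1 (Tutored replicate 1) and 25.4 (Tutored replicate 2) reads per kb. Among P32 islands of that length the fewest reads were 28 and the median density was 20.3 reads per kb, with 5% of islands under 13.9. From there to 8 kb the same medians were 16.0, 23.0, 15.9 and 23.2 in members, and 20.9 in P32 islands. How many P32 reads lie in the members themselves is not known from island lists, and whether they fell short of the caller's limit was not tested.

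The 8 members with the highest mean H3K9me3 CPM stood at 155 to 190 CPM, and the median member mean was 39.9 CPM. CPM is not scaled by length. The 8 measured 10.8 to 19.8 kb, against a median of 5.6 kb over all members, so the ranking is not one of read density. The highest lay on chromosome 6 at 16205601 to 16225200 (19.6 kb), with 315 and 370 reads in Isolate and 294 and 361 reads in Tutored, or 190 ± 11.4 CPM (SD, n = 4). The next lay on chromosome 2 at 80011001 to 80030000 (19.0 kb), with 312 and 382 reads in Isolate and 249 and 378 in Tutored. These 2 members held similar levels in all 4 libraries, with no library outside the range of 161 to 204 CPM. The most compact of the 8 was the 10.8 kb member on chromosome 1 at 23360401 to 23371200, with 285 and 342 reads in Isolate and 294 and 340 in Tutored.

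Others of the 8 varied more among libraries. The 19.8 kb member on chromosome 3 at 42894601 to 42914400, the longest that the length limit let in, held 147 and 425 reads in Isolate and 265 and 436 in Tutored. On chromosome 11 at 8297001 to 8314200, the Isolate libraries had 307 and 388 reads and the Tutored libraries 282 and 215. The lowest library was Isolate replicate 1 on chromosome 3 and Tutored replicate 2 on chromosome 11. On chromosome 3 the Isolate and Tutored counts overlapped, and on chromosome 11 both Isolate counts were above both Tutored counts. The other 3 of the 8 lay on chromosome 8 at 19304801 to 19322000, chromosome 3 at 26885601 to 26902400 and chromosome 1 at 91081401 to 91098600, at 166 ± 16.1, 158 ± 28.9 and 155 ± 27.05 CPM. Over all members the median coefficient of variation across the 4 libraries was 27.1%, and over lasting regions it was 23.4%.

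**Figure D1:**
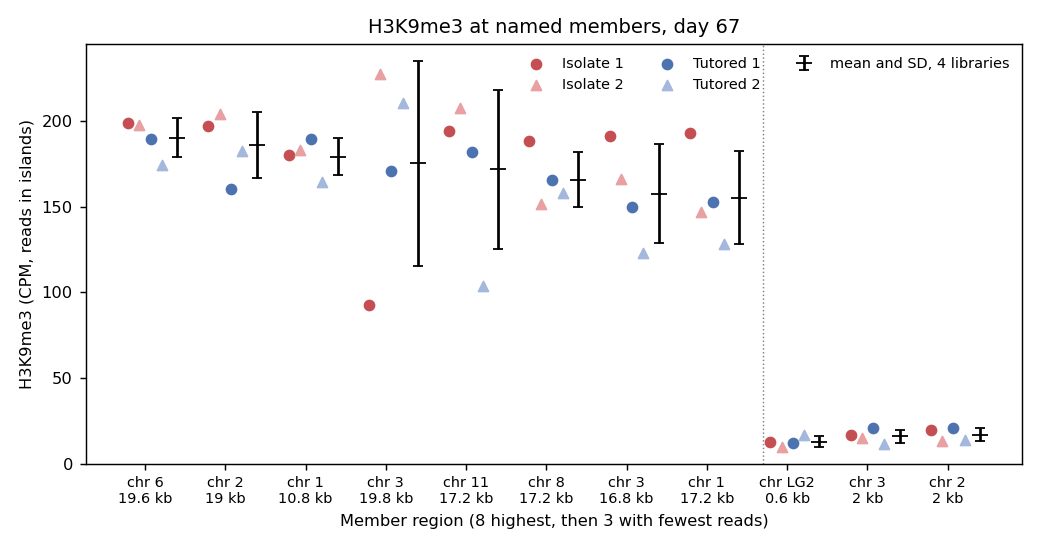
H3K9me3 in CPM (reads in a region per 1000000 reads in the library's islands, linear axis) at the 8 members with the highest mean and the 3 with the fewest reads, left and right of the dotted line. Points are the 2 Isolate and 2 Tutored libraries and bars the mean and SD of the 4. The 8 with the highest mean average 155 to 190 CPM, and the 3 with the fewest reads 12.9 to 16.9 CPM. CPM is not scaled by length.

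At the other end, the member with the fewest reads was 0.6 kb long, on linkage group LG2 at 56801 to 57400, with 20 and 18 reads in Isolate and 19 and 35 in Tutored. The next fewest reads were at members 2.0 kb long, on chromosome 3 at 86793801 to 86795800 (26 and 28 reads in Isolate, 32 and 24 in Tutored) and on chromosome 2 at 37344801 to 37346800 (31 and 25 reads in Isolate, 32 and 29 in Tutored). These counts lie close to the fewest reads of any island, 13 to 16 in the day 67 libraries. Islands covered 0.4 to 0.6 kb of the LG2 member and 0.6 to 2 kb of the other 2, so few reads need not mean a low density. The length limit cut few regions off: 13 members measured 18 kb or more, and 20 regions of 20 kb or more had the same calls, the longest of them 30.4 kb. The 3 just above the limit measured 20.2 kb. One on chromosome 3 at 103961801 to 103982000 held 331 and 328 reads in Isolate and 276 and 231 in Tutored. The other 2, on chromosome 2 at 47824601 to 47844800 and at 104396601 to 104416800, held 63 to 254 and 92 to 287 reads. The 3 longest members, just inside the limit, were the 19.8 kb and 19.6 kb members above and a 19.4 kb member on chromosome 5 at 13288801 to 13308200, with 271 and 207 reads in Isolate and 209 and 92 in Tutored.

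The members lay mainly on the large autosomes. Bird genomes join a few long macrochromosomes to many short, gene-dense microchromosomes. The 6 autosomes of at least 50 Mb held 2538 members, 82.7% of all, although they make up 62.6% of the autosomal length. This amounts to 4.28 members per Mb on these 6, against 1.99 on the 8 chromosomes of 20 to 50 Mb (429 members) and 0.725 on the 20 sequences under 20 Mb (101 members, with none on 6 of them). The order is that of the pooled classes: the short sequence LG2 reached 9.12 per Mb with 1 member, above any single chromosome. Lasting regions did not follow this order, with 4.01, 4.04 and 5.73 per Mb from large to small. Regions called in P32 alone ran the other way, with 5.02, 10.01 and 22.7 per Mb.

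Chromosome 2 held 843 members (5.39 per Mb), chromosome 3 held 594 (5.27 per Mb) and chromosome 1 held 475 (4.01 per Mb). Chromosomes 4, 1A and 5 held 265, 205 and 156. Seen as a share of the day 67 regions of a class, members made up 51.6% on the large autosomes, 33.0% on the middle ones and 11.2% on the small ones. The share of bases under H3K9me3 islands went with this split in P32 but not at day 67. It was 6.68% ± 1.37 at day 67 and 4.32% in P32 on the large autosomes, 6.09% ± 0.864 and 7.91% on the middle ones, and 6.21% ± 0.530 and 16.7% on the small ones (SD, n = 4 day 67 libraries, 1 P32 library). On the large autosomes P32 thus had less H3K9me3 cover than the day 67 mean and on the small ones more. The part that this library-wide shift has in the choice of members was not tested.

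**Figure D2:**
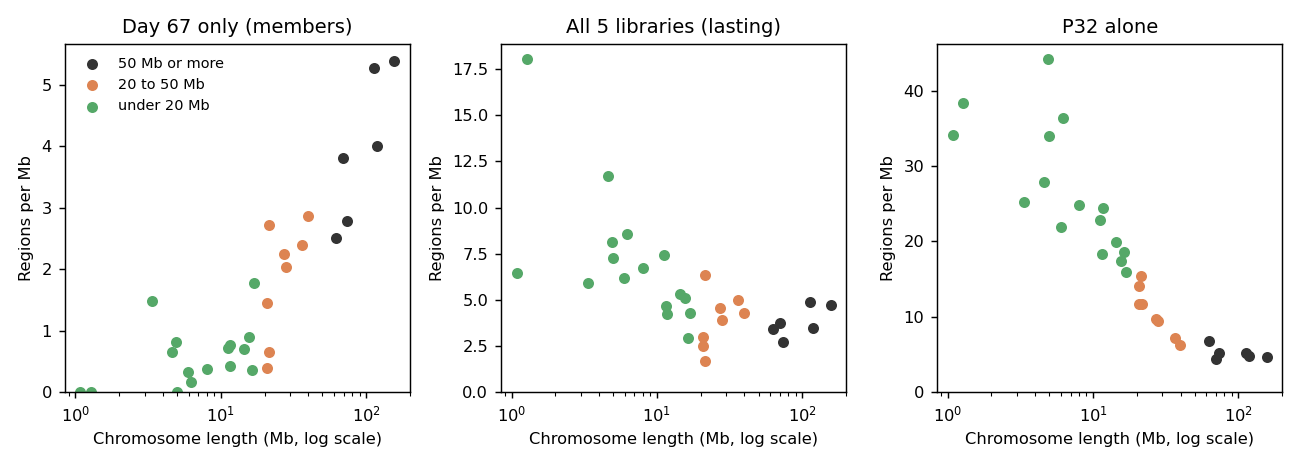
H3K9me3 regions under 20 kb per Mb of chromosome (linear axis) against chromosome length (Mb, log axis), 1 point per chromosome of at least 1 Mb outside Z, for regions at day 67 without P32 (members), in all 5 libraries (lasting) and in P32 alone. Pooled by size class, members stand at 4.28 per Mb over chromosomes of 50 Mb or more and 0.725 per Mb over sequences under 20 Mb, and P32-alone regions show the opposite order (5.02 and 22.7 per Mb).

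Within chromosomes the members lay farther from H3K4me3 regions and from chromosome ends than the sets given beside them. Each of those sets holds regions called in P32, which the rule keeps out of the members. The part of that exclusion in these distances was not tested. The median distance from a member to the nearest H3K4me3 region was 60.4 kb, against 34.6 kb for lasting regions, 33.8 kb for all autosomal regions under 20 kb and 2.0 kb for those of P32 alone. A distance of more than 100 kb was found for 33.1% of members, and 0.847% of members overlapped an H3K4me3 region, against 14.6% of lasting regions. On the large autosomes alone the medians were 62.2 kb for members, 45.3 kb for lasting regions and 48.6 kb for all. Of the members, 13.6% lay within 5 Mb of a chromosome end, against 38.7% of lasting regions and 29.9% of all. On the large autosomes these shares were 7.41%, 17.1% and 10.4%, so the order held within one class of chromosome.

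The distance from members to H3K9me3 called in P32 was near that of other regions. The nearest P32 island was a median of 15.2 kb away, with quartiles of 5.6 and 35.6 kb, and for all 18762 autosomal regions under 20 kb that P32 did not call, members included, it was 18.8 kb. A P32 island lay within 5 kb of 683 members (22.3%) and within 600 bp, the gap that the island caller bridges, of 34. More than 100 kb separated 139 members (4.53%) from any P32 island, and the largest distance was 538 kb. In the reverse case of a P32 island that only grazes a domain, 17 lasting regions (0.42%) were covered by P32 islands over less than 10% of their length.

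The members were unevenly spread. The gap to the next member had a median of 65.4 kb, and 762 of 3040 gaps (25.1%) were at most 20 kb. Stretches between neighbouring P32 islands that held members numbered 1995. Of these, 655 held 2 or more, with 1728 members (56.3%) among them, and 39 held 5 or more. Of 964 windows of 1 Mb that had any autosomal H3K9me3 region under 20 kb, 292 had no member, the median was 2, and 80 had 10 or more. The fullest window, on chromosome 2 at 92000001 to 93000000, held 26 members, 8 lasting regions and 0 regions of P32 alone. The windows on chromosome 3 at 103000001 to 104000000 and at 110000001 to 111000000 held 25 members each, beside 25 and 30 lasting regions.

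The stretch without P32 islands that held the most members lay on chromosome 4 at 24470401 to 24839800, 369 kb that held 16 members of 3.8 to 17.6 kb. Over the 16 members the H3K9me3 reads summed to 1429 and 1312 in the Isolate libraries, and to 1596 and 1428 in the Tutored libraries. H3K27me3 islands overlapped 16 and 15 of them in Isolate and 16 and 13 in Tutored, and 4 of them in P32. No H3K4me3 or Pol II island overlapped any of the 16 in any library. In this stretch every day 67 library thus had H3K27me3 over more members than P32.

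A stretch of 250 kb on chromosome 1, at 87573201 to 87823600, held 11 members with summed H3K9me3 reads of 986 and 1060 in Isolate and 976 and 1032 in Tutored. H3K27me3 was called at 11 and 9 of them in Isolate, at 10 and 9 in Tutored, and at 2 in P32. In another stretch, of 505 kb on chromosome 7 at 8356201 to 8861600, 11 members held 704 and 764 reads in Isolate and 782 and 765 in Tutored. Here H3K27me3 was called at 10 and 11 of them in Isolate, 11 and 10 in Tutored and 9 in P32, so P32 lacked H3K9me3 islands over domains at which it had H3K27me3. Stretches with fewer members varied more. Every day 67 library called H3K27me3 at 0 of 8 members on chromosome 1 from 78828801 and at 2 of 9 on chromosome 2 from 33448001. The count was 8 of 8 on chromosome 2 from 71772601.

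The other marks were not used to choose the members. P32 has an input library of its own, and the part of the input in the differences from P32 was not tested. H3K27me3 was called at more members in each day 67 library than in P32, as were H3K4me3 and Pol II (below). H3K27me3 islands overlapped 1796 (58.5%) and 1691 (55.1%) members in Isolate, 1828 (59.6%) and 1706 (55.6%) in Tutored, and 1027 (33.5%) in P32. The day 67 mean was 57.2% ± 2.19 (SD, n = 4), which is 23.7 percentage points above P32. This SD is that among day 67 libraries and does not measure how far a single P32 library may stray. No day 67 library came near the P32 value. Lasting regions differed less, with 66.6% ± 1.41 at day 67 and 61.8% in P32. At regions of P32 alone the order was the opposite, with 39.4% ± 2.37 at day 67 and 53.0% in P32. Over all autosomal regions under 20 kb the shares were 45.8% ± 0.837 and 39.9%. The set of all holds the regions of P32 alone, which the rule keeps out of the members and which lower its difference. Lasting regions are called in P32 as well. How much of the gap between members and these sets comes with that exclusion was not tested.

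The difference was as large within the large autosomes. There the shares were 52.2% ± 2.47 at day 67 and 27.3% in P32 for members, 56.6% ± 1.95 and 48.7% for lasting regions, and 37.6% ± 0.852 and 26.8% for all. The set of all again holds the regions of P32 alone, at 30.7% ± 2.87 at day 67 and 41.3% in P32. H3K27me3 islands numbered 23375 to 31185 in the day 67 libraries and 21621 in P32, the fewest. With the 21621 densest islands taken from every library, the members' share was 54.0% and 39.3% in Isolate, 51.6% and 37.3% in Tutored, and 33.5% in P32. The day 67 mean was then 45.5% ± 8.46 and the difference 12.1 points, with the replicate 2 libraries only slightly above P32. At lasting regions the same step gave 61.5% ± 1.61 at day 67 and 61.8% in P32. The difference at members thus kept its direction in all 4 libraries when island numbers were equal, and its size depended on the replicate. Equal island numbers need not make the covered length equal. Before this step H3K27me3 islands covered 144 and 119 Mb in Isolate, 151 and 116 Mb in Tutored and 113 Mb in P32. The part of this cover in the shares was not tested.

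**Figure D3:**
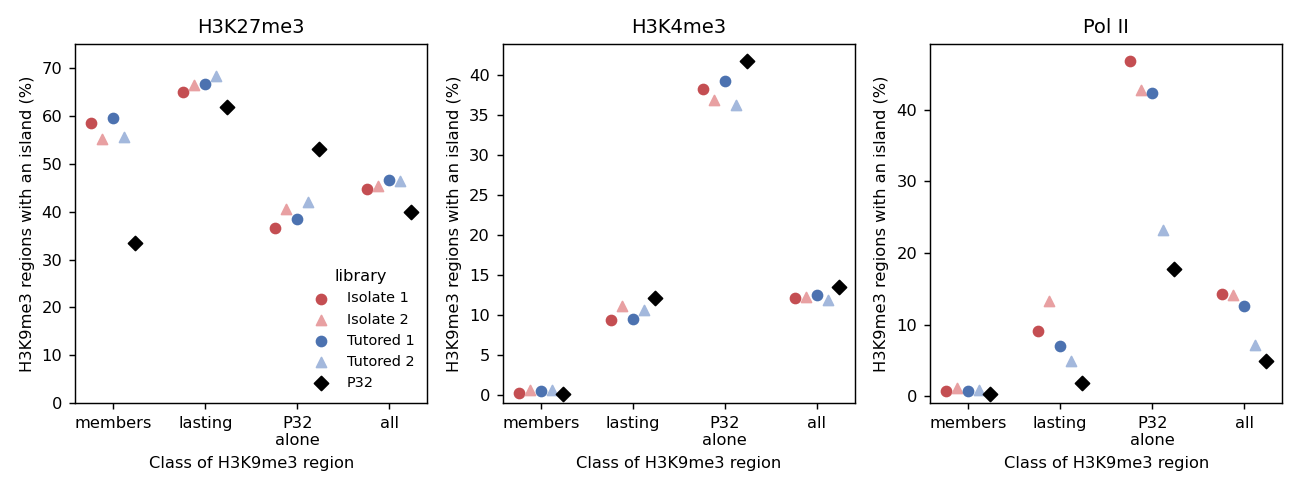
Share of H3K9me3 regions (%) overlapped by an island of H3K27me3, H3K4me3 or Pol II, for members (day 67 without P32), lasting regions (all 5 libraries), regions of P32 alone and all autosomal regions under 20 kb. Each point is 1 library; at members H3K27me3 stands at 55.1% to 59.6% in the day 67 libraries and 33.5% in P32, and H3K4me3 and Pol II stand at 1.14% or less in every library.

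Longer members carried H3K27me3 more often, and the difference from P32 was present in every length class. Under 4 kb (720 members) the share was 40.1% ± 1.34 at day 67 and 21.3% in P32. It was 51.4% ± 2.36 and 30.1% from 4 to 6 kb (952 members), 64.5% ± 4.12 and 38.2% from 6 to 8 kb (654), 70.3% ± 3.68 and 40.3% from 8 to 12 kb (543), and 87.1% ± 3.08 and 59.3% from 12 to 20 kb (199). Lasting regions of the same lengths had shares at day 67 of 45.6% to 85.03% and in P32 of 44.1% to 80.9%. In P32 members were below lasting regions of like length in all 5 classes. At day 67 members were also below lasting regions in each class under 12 kb, by smaller amounts. The shares were 40.1% against 45.6% under 4 kb, and 70.3% against 75.5% from 8 to 12 kb. From 12 to 20 kb at day 67 the 2 sets differed by less than the SD of the members' share.

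**Figure D4:**
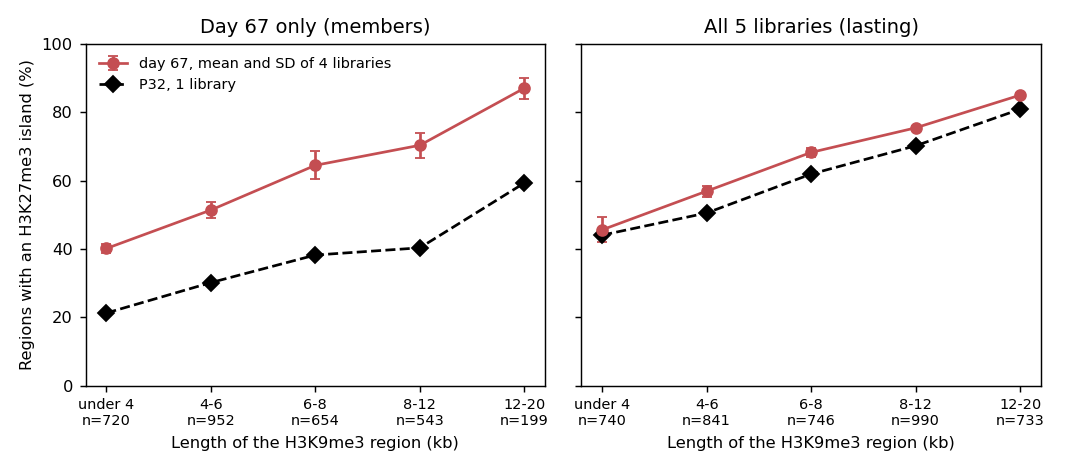
Share of H3K9me3 regions (%) overlapped by an H3K27me3 island against the length of the region (kb, 5 classes with their number), for members on the left and lasting regions on the right. Circles with bars are the mean and SD of the 4 day 67 libraries and diamonds the single P32 library; members of 12 to 20 kb reach 87.1% at day 67 and 59.3% in P32, and lasting regions of that length 85.03% and 80.9%.

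By the pattern of H3K27me3 calls the members fell into 4 sets. H3K27me3 was called in all 5 libraries at 955 members (31.1%), a share near the 30.5% of all autosomal regions under 20 kb and below the 55.5% of lasting regions. These lay in long H3K27me3 regions (median 13.8 kb), and 66.6% of them were on the large autosomes. Another 415 members (13.5%) had it in the 4 day 67 libraries and not in P32, the same pattern as their H3K9me3. This pattern was found at 143 lasting regions (3.53%) and at 1653 of all autosomal regions under 20 kb (4.65%). A further set of 911 members (29.7%) had no H3K27me3 in any library, as did 25.2% of lasting regions and 40.8% of all. These 911 members were shorter (median 4.6 kb), 94.3% of them lay on the large autosomes, and their median distance to H3K4me3 was 85.8 kb. The remaining 787 members had mixed calls, and 1 of these had H3K27me3 in P32 alone.

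The members with the highest mean H3K9me3 CPM named above give examples of these sets, except the set with no H3K27me3 in any library. Calls were mixed on chromosome 2 at 80011001 to 80030000, with H3K27me3 islands in replicate 2 alone of both day 67 groups. They were also mixed on chromosome 1 at 23360401 to 23371200, with islands in replicate 1 alone. The chromosome 6 member at 16205601 to 16225200 lay under H3K27me3 islands with 4868 and 8034 reads in Isolate, 5299 and 7395 in Tutored and 6509 in P32. The chromosome 3 member at 42894601 to 42914400 had H3K27me3 islands with 396 and 445 reads in Isolate and 463 and 520 in Tutored, and none in P32. So did the chromosome 1 member at 91081401 to 91098600, with 84 and 159 reads in Isolate and 165 and 155 in Tutored. These counts are of whole islands, which can reach past the member.

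Among members with H3K27me3 in the 4 day 67 libraries and not in P32, that with the most H3K27me3 reads lay on chromosome 3 at 103888201 to 103904600 (16.4 kb). Its H3K27me3 islands held 634 and 1023 reads in Isolate and 4101 and 359 in Tutored. The next, on chromosome 3 at 73255601 to 73261800 (6.2 kb), had 5089 and 55 reads in Isolate and 62 and 69 in Tutored. The one after, on chromosome 10 at 7963001 to 7975200 (12.2 kb), had 1496 and 211 in Isolate and 1995 and 101 in Tutored. At each of the 3 the counts differed by more than 10 times between libraries.

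Promoter and polymerase signals were seldom called at members. H3K4me3 islands overlapped 10 and 21 members in Isolate, 16 and 20 in Tutored and 5 in P32, or 0.546% ± 0.163 at day 67 and 0.163% in P32. Lasting regions had 10.2% ± 0.823 and 12.1%, and all autosomal regions under 20 kb had 12.2% ± 0.242 and 13.6%. Pol II islands overlapped 23 and 35 members in Isolate, 23 and 26 in Tutored and 8 in P32, or 0.872% ± 0.185 and 0.261%. The Pol II lists were unequal, with 19656 and 15198 islands in Isolate, 18311 and 8589 in Tutored and 10996 in P32. The part of list size in the Pol II shares was not tested. The shares of lasting regions with Pol II were 8.61% ± 3.57 at day 67 and 1.80% in P32, and those of all were 12.03% ± 3.34 and 4.95%. Neither mark was called in any library at 2971 members (96.8%), against 76.8% of lasting regions and 77.1% of all. Both comparison sets hold regions called in P32, which the rule keeps out of the members, and 37.2% of regions of P32 alone had neither mark. How much of the gap comes with that exclusion was not tested. No island of any of the 3 other antibodies was called at 891 members (29.0%), at 22.0% of lasting regions and at 32.3% of all. The deposited names of the H3K4me3 replicate 1 lists carry the letter of the other day 67 group, and those of the Pol II replicate 1 lists another replicate number. The labels were followed, so which group these replicate 1 values belong to is uncertain for H3K4me3, and day 67 means do not depend on it.

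Only 4 members had H3K4me3 in all 5 libraries. The one with the most H3K4me3 reads lay on chromosome 3 at 78891401 to 78894800 (3.4 kb), with 436 and 1102 H3K4me3 reads in Isolate, 406 and 1167 in Tutored and 715 in P32. Pol II islands were also called there in Isolate, with 100 and 94 reads, and in neither Tutored library nor P32, with the same doubt about the replicate number of the first. The Pol II lists of Tutored replicate 2 and P32 were the shortest. The member on chromosome 4 at 124401 to 128400 had 295 and 1199 H3K4me3 reads in Isolate, 416 and 1192 in Tutored and 107 in P32. The member on chromosome 2 at 83440201 to 83450800 had 257 and 936 in Isolate, 291 and 834 in Tutored and 280 in P32. In these 3, replicate 2 held more H3K4me3 reads than replicate 1 in both groups, as did the H3K4me3 libraries as a whole.

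Read counts were then compared in H3K27me3 regions that both ages share. The 31910 merged H3K27me3 regions included 2213 that overlapped a member, and 11659 regions, 1016 of them at members, were called in all 5 libraries and could be tested. Most of the regions at members had more H3K27me3 reads at day 67 after scaling, although no single one passed the test given below. The median log2 fold of day 67 over P32 was 0.35 over the 1016 regions (quartiles 0.10 and 0.82), and 83.3% of them were above 0. Over all 11659 regions the median was 0.00 and 50.3% were above 0, and over the 1924 regions at lasting regions and no member they were -0.06 and 42.1%.

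Each day 67 library on its own showed this order. In CPM over P32, the median log2 difference at members was 0.50 in Isolate replicate 1, 0.24 in Isolate replicate 2, 0.44 in Tutored replicate 1 and 0.22 in Tutored replicate 2. Over all regions these medians ran from -0.04 to 0.04. The 4 values share the 1 P32 library. On the large autosomes the medians were 0.45 at members (683 regions) and 0.18 over all (4802 regions). By length of the H3K27me3 region they were 0.26 at members and -0.05 over all under 6 kb, 0.31 and 0.03 from 6 to 12 kb, 0.50 and 0.05 from 12 to 20 kb, and 0.33 and 0.02 above that.

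No single H3K27me3 region passed the test. With edgeR's quasi-likelihood test and a Benjamini-Hochberg adjusted p of 0.05, 0 of the 1016 regions at members were higher and 0 lower at day 67, as were 0% and 0% of all 11659. At an unadjusted p under 0.05, 167 regions at members were higher and 4 lower, against 699 higher (6% of those tested) and 483 lower over all. DESeq2 called 80 regions at members, all higher at day 67, and 260 higher ones over all (2.23%). With the covered length of each region as an offset, the median at members was 0.05 and that over all -0.05. The covered length thus moved with the counts, and the members' median fell from 0.35 in the main fit to 0.05 with this offset. More reads and longer called islands cannot be told apart here. These fits take the 1 P32 library to vary as the day 67 libraries do.

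**Figure D5:**
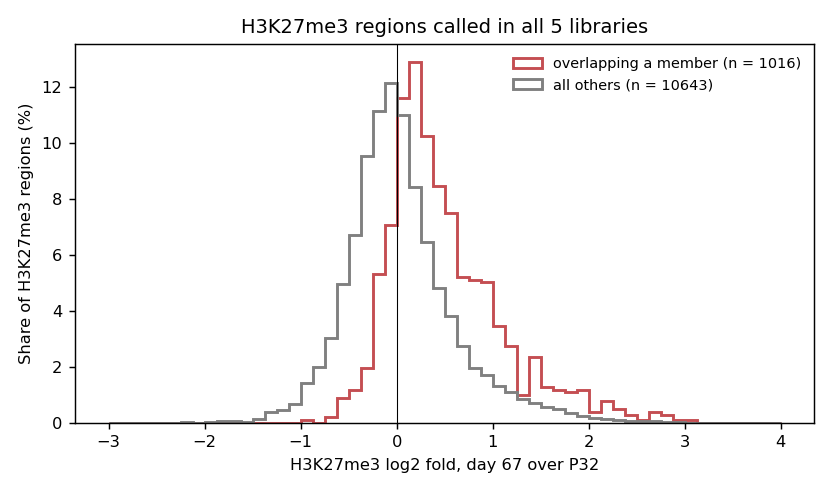
Distribution of the log2 fold of H3K27me3 reads, day 67 over P32 (edgeR fit, horizontal axis), as a share of regions (%, vertical axis), for the 1016 H3K27me3 regions at a member and all others called in all 5 libraries. The members' curve lies to the right, with a median of 0.35 over the members' regions and 0.00 over all 11659.

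The 3 H3K27me3 regions at members with the lowest p were all higher at day 67, with every day 67 library above the 1 P32 library. The length that islands covered in each library is not given for them. More reads and longer called islands therefore cannot be told apart at these 3 either. The first, 26.8 kb on chromosome 1 at 34047801 to 34074600, held 784 and 965 reads in Isolate, 724 and 885 in Tutored and 143 in P32. That is 118 ± 13.9 CPM at day 67 (n = 4) and 23.2 CPM in P32, with a log2 fold of 2.34 (SE 0.28, edgeR adjusted p = 0.439). The second, 20.8 kb on chromosome 1 at 87774601 to 87795400, is part of the stretch of 11 members described above. It held 651 and 803 reads in Isolate, 656 and 676 in Tutored and 82 in P32, with a log2 fold of 2.88 (SE 0.34). The third, 13 kb on chromosome 5 at 10256601 to 10269600, held 312 and 452 reads in Isolate, 397 and 447 in Tutored and 64 in P32, with a log2 fold of 2.43 (SE 0.34). The adjusted p was the same for all 3, which were chosen after their values were seen.

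Isolate and Tutored birds were compared at the members by H3K9me3 reads. The choice of members did not use the difference between these groups, but it required an island in all 4 day 67 libraries. A region uncalled in any of these libraries could not be a member and was not in this test. Differences strong enough to remove an island in either group are therefore not covered. No member passed the test. With edgeR's quasi-likelihood test over the 8813 regions called in all 4 day 67 libraries, 0 of 3068 members and 0% of all regions had a Benjamini-Hochberg adjusted p under 0.05. At an unadjusted p under 0.05 there were 50 members and 123 regions over all (1.4%). DESeq2 called 0 members, with 34 members and 104 of the 8813 regions over all at an unadjusted p under 0.05. With the replicate number as a block there were again 0 calls, with 156 members and 425 regions over all (4.82%) at an unadjusted p under 0.05. The labels do not say whether replicates are separate birds, so these p-values may rest on technical spread alone.

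The members' median log2 fold of Isolate over Tutored was 0.04, against -0.01 over all regions. Within replicate 1 it was -0.0029, against -0.0031 over all regions, and within replicate 2 it was 0.20, against 0.07 over all. Leaving out 1 library moved the members' median to between -0.08 and 0.23, so its sign rested on single libraries. A difference of more than 2-fold in the same direction in both replicates was seen at 17 members that were higher and 6 that were lower in Isolate, and 20 members differed in opposite directions. Over all regions these counts were 30, 14 and 41.

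The member with the lowest p lay on chromosome 3 at 110541401 to 110548400 (7.0 kb), with 81 and 125 reads in Isolate and 29 and 32 in Tutored. Its log2 fold was 1.76 (SE 0.41, edgeR adjusted p = 0.9997). On the same chromosome, the member at 110453801 to 110465000 (11.2 kb) went the other way, with 34 and 44 reads in Isolate and 136 and 125 in Tutored and a log2 fold of -1.74 (SE 0.41). Both lie in the window at 110000001 to 111000000 that held 25 members. The third, on chromosome 3 at 2475401 to 2484000 (8.6 kb), had 31 and 45 reads in Isolate and 126 and 108 in Tutored, with a log2 fold of -1.63 (SE 0.42). In all 3 the Isolate and Tutored counts did not overlap, and none passed the adjusted threshold.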

How the data were processed

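Per the labels' protocols, chromatin of dissected forebrain was fixed with formaldehyde, sonicated, precipitated and sequenced on an Illumina instrument. Tools named in the submitters' processing notes are BWA 0.6.1, SICER 1.1 and MACS, without their roles; a genome build was not given in the sources used here. Deposited names carry SICER settings: windows of 200 bp, gaps of 600 bp (200 bp for H3K4me3) and an FDR of 1E-5. Each library has its own list of islands, and the deposited values are whole-number counts of reads per island. Their names carry the tag uniqnorm, which no label explains, so whether reads were normalised before counting is not known. For 3 of the antibodies, replicate 2 lists also hold a p-value and a fold ratio over input that the authors deposited, and the fold for H3K9me3 alone was used. Depth outside islands is unknown, so reads per library mean reads in islands. Coordinates are 1-based on the authors' build.

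Islands were merged with Python 3.11.15 and pandas 2.3.3. Another mark was counted as present where its island overlapped a region by at least 1 bp. The highest island end of any list served as chromosome length. Counts were summed per region, and edgeR 4.0.16 (quasi-likelihood test, TMM factors) was run over all regions called in every library compared, with Benjamini-Hochberg adjustment over all of them, in R 4.3.3. DESeq2 1.42.0 was an alternative. Whether replicates are separate birds is not stated, so p-values rest on the spread between libraries, which may be technical. The replicate 1 input is titled as a Tutored and Isolate pool, and the replicate 2 input is not titled as a pool. P32 has an input library of its own. Same-numbered libraries deviated together from their group means (r = 0.416 across all regions, 0.24 across members). The replicate numbers were therefore taken to pair the samples in the alternative fit with the replicate block. The main fit of Isolate over Tutored, which gave the folds, SEs and adjusted p of the named members, did not use this pairing.

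The regions named are the 8 members with the highest mean CPM, the 3 longest, the 3 just over the length limit, the 3 with the fewest reads, the 3 with the most H3K27me3 reads among those with it at day 67 alone, the 3 with the most H3K4me3 reads among those with it in all 5 libraries, and the 3 of lowest p in Isolate over Tutored. Stretches, windows and H3K27me3 regions of lowest p were added after their values were seen. The members, lists and tests were chosen with earlier results of these data known.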

Additional observations from a re-analysis of the deposited data

How the results depend on the processing

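The number of members ranged from 2283 to 3795 under 8 of the 9 alternative rules, and was 967 where islands had to cover 50% of a region in each day 67 library. It was 3650 to 3795 with 1 day 67 library left out of the rule. The share of members with H3K27me3 at day 67 was 54.2% to 57.9% with 1 library left out (54.5% without Isolate replicate 1 in the rule), 59.5% with 50% cover of the region, 54.6% without a P32 island within 5000 bp, and 44.3% where H3K27me3 had to cover 50% of the member. The difference between day 67 and P32 in that share, whose alternatives were chosen after seeing the data, was 20.9 points with equal numbers of H3K9me3 islands per library, 20.3 with 50% cover of the region, 19.0 with H3K27me3 over 50% of the member, and 12.1 with equal numbers of H3K27me3 islands; it was 22.4 to 24.4 with 1 library left out. The H3K4me3 share was 0.756% with equal numbers of H3K9me3 islands, 0.0652% where it had to cover 50% of the member, and 0.4998% to 0.619% with 1 library left out. The Pol II share was 0.261% under that cover and 0.782% to 0.929% with 1 library left out. The cause of these shifts was not tested.

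For H3K27me3 at members, DESeq2 called 80 regions, all higher at day 67. Another fit took regions with an island in 2 or more libraries and entered 0 reads wherever none was called. It called 68 of 1867 regions at members, all higher at day 67, and 328 of 23808 over all. Where P32 had no island, this 0 stands for an unknown count and raises the fold by construction. The 68 calls therefore cannot tell a change in H3K27me3 from a missing P32 island. A filter of 50 mean reads, RLE size factors, the covered length as offset and each day 67 library left out gave 0. The median log2 fold at members was 0.27 to 0.43 with 1 library left out. For Isolate over Tutored, 0 members were called under each of these settings and with the replicate block (0 called). No fit with the replicate block was run for H3K27me3. Differences between replicates 1 and 2 therefore count as spread in its fits. P32 has 1 library, so the ages could not be compared within each replicate number. The share of members in annotated genes was not run, since no annotation of the build was used here. Reads outside islands are unknown, which limits every statement on an uncalled region.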
